A study of Homo sapiens with 4 samples.

Results

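The cytochrome P450 genes (symbols that begin with CYP) were examined in ATAC-seq peak lists of a pair of human prostate cancer cell lines. Members were the protein-coding genes of GENCODE release 44 whose symbol is CYP followed by a number, a letter code and a number, which gave 56 genes of 20033 protein-coding genes on chromosomes 1 to 22, X and Y. C4-2B is a prostate adenocarcinoma line. C4-2BER was derived from C4-2B by continuous exposure to enzalutamide, an androgen receptor inhibitor, was kept in the drug, and is used as a neuroendocrine-like model. Both lines were grown in RPMI with fetal bovine serum. Each line is a line in culture and not a set of tumours, and whether C4-2BER is a clone or a mixed population was not given in the sources used here.

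ATAC-seq uses the Tn5 transposase to cut and tag accessible DNA, and a peak is an interval where more reads pile up than the local background holds. Each line had 2 libraries, and the authors merged them before peaks were called. Every value below therefore comes from 1 merged list per line, with no spread between replicates and no test between the lines. The C4-2B list held 149676 peaks at a recovered depth of 30.2 M reads, and the C4-2BER list held 118728 peaks at 25.2 M reads. Of these peaks, 62.3% (C4-2B) and 79.2% (C4-2BER) overlapped a peak of the other line. The luminal prostate markers KLK3, KLK2, TMPRSS2, FOLH1 and HOXB13 all had promoter peaks in the lists of either line. So did the neuroendocrine markers CHGA, SYP, ENO2, INSM1 and NCAM1, so the presence of these peaks does not tell the lines apart. The KLK3 promoter summit was taller in C4-2B (171 reads, against 45 in C4-2BER), and that of NCAM1 in C4-2BER (59 reads, against 24 in C4-2B). These were the largest differences among the markers named here. In the log2 depth-scaled ratio explained below (C4-2BER over C4-2B), KLK3 had −1.67 and NCAM1 1.56. TMPRSS2 (−0.51) and ENO2 (0.64) followed. KLK2 (−0.16), FOLH1 (−0.08), HOXB13 (0.23), CHGA (0.00), SYP (−0.04) and INSM1 (0.10) differed less.

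Cytochromes P450 are heme enzymes that insert an oxygen atom into their substrates. Those in the endoplasmic reticulum take electrons from P450 oxidoreductase (POR), and those in mitochondria take them from ferredoxin and its reductase. Families CYP1 to CYP3 are best known for drug clearance in the liver, CYP4 for hydroxylation of fatty acids and eicosanoids, CYP11, CYP17, CYP19 and CYP21 for steroid hormones, CYP7, CYP8, CYP27A1, CYP39, CYP46 and CYP51 for cholesterol and bile acids, and CYP2R1, CYP24, CYP27B1 and CYP26 for vitamins D and A. For prostate cancer they are of interest because androgen synthesis needs CYP17A1 and CYP3A enzymes oxidise testosterone. The members were placed in 6 groups by these roles, with 6 genes of steroid hormone synthesis, 7 of cholesterol and bile acid metabolism, 17 of drug metabolism, 11 of fatty acid metabolism, 7 of vitamin D and vitamin A metabolism and 8 with no settled substrate.

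Most CYP promoters had a peak in both lines, and 9 of the 18 without one in either line were drug-metabolism genes. A promoter was the stretch of 2000 bp either side of any transcription start site (TSS) of a protein-coding transcript, and it was called open when at least 1 peak overlapped it. Of the 56 members, 33 (58.9%) were open in both lists, against 77.5% of all protein-coding genes. CYP4Z1 and CYP7A1 were open in C4-2B only (3.57%, against 2.83% of all genes), and CYP2D7, CYP7B1 and CYP17A1 in C4-2BER only (5.36%, against 3.37% of all genes). No promoter peak was listed for the other 18 members (32.1%, against 16.3% of all genes), among them CYP2A6, CYP2A7, CYP2B6, CYP2F1, CYP3A7, CYP4A11, CYP4A22, CYP4F2, CYP4X1, CYP8B1, CYP11B2, CYP21A2 and CYP26C1. A promoter with no listed peak can still hold reads below the limit of peak calling, since no listed summit had fewer than 8 reads (C4-2B) or 7 reads (C4-2BER).

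The groups differed in their share of open promoters. Of the 17 drug-metabolism genes, 8 were open in both lists and 9 in neither. Of the 11 fatty acid genes 9 were open in both lists, and of the 7 vitamin genes 6 were. The cholesterol and bile acid group had 4 genes open in both lists, 1 in each list alone and 1 in neither. The steroid hormone group had 3 in both, 1 in C4-2BER only and 2 in neither.

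**Figure D1:**
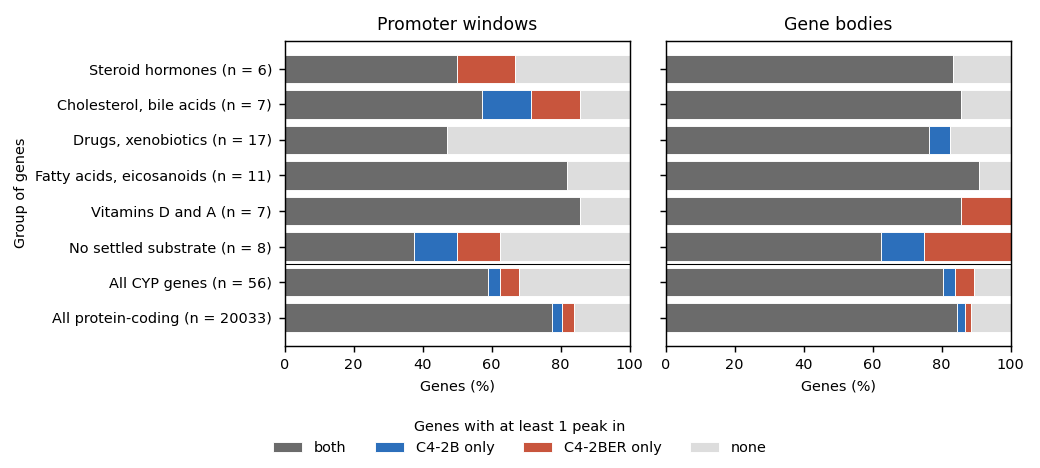
Share of genes (%) with at least 1 peak in both lists, in C4-2B only, in C4-2BER only or in neither, for promoter windows (left) and gene bodies (right), by group of CYP genes and for all 20033 protein-coding genes. The grey-white "none" part of the promoter bars is largest for drug metabolism, where 9 of 17 genes had no promoter peak.

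The height of the strongest promoter peak was compared between the lines in the 33 members open in both. The reads over each summit were recovered from the deposited fold and −log10 p, and the C4-2BER reads were multiplied by 1.20, the ratio of the depths. The log2 of this depth-scaled ratio, C4-2BER over C4-2B, had a median of 0.10 in the members (quartiles −0.48 and 0.48) and of 0.14 over 15530 genes (quartiles 0.00 and 0.27). Members above 0 numbered 20 of 33, against 11648 of 15530 genes overall. CYP2S1 and CYP26B1 were at least 2-fold higher in C4-2BER, where 3.1% of all genes passed this limit. CYP11A1, CYP4F3 and CYP3A43 were at least 2-fold lower, where 1.4% of all genes passed. The members were therefore more spread to both sides than genes in general, and their promoter peaks were also weaker, with a median of 83 reads in C4-2B against 48 in C4-2BER against 122 and 111 for all genes. Weaker peaks have wider counting error, and its part in the spread was not tested. The 95% exact intervals given below for ratios cover counting error only and not the spread between cultures. Such an interval lay above 1 for 4 members (11.5% of all genes) and below 1 for 6 members (3.38% of all genes).

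**Figure D2:**
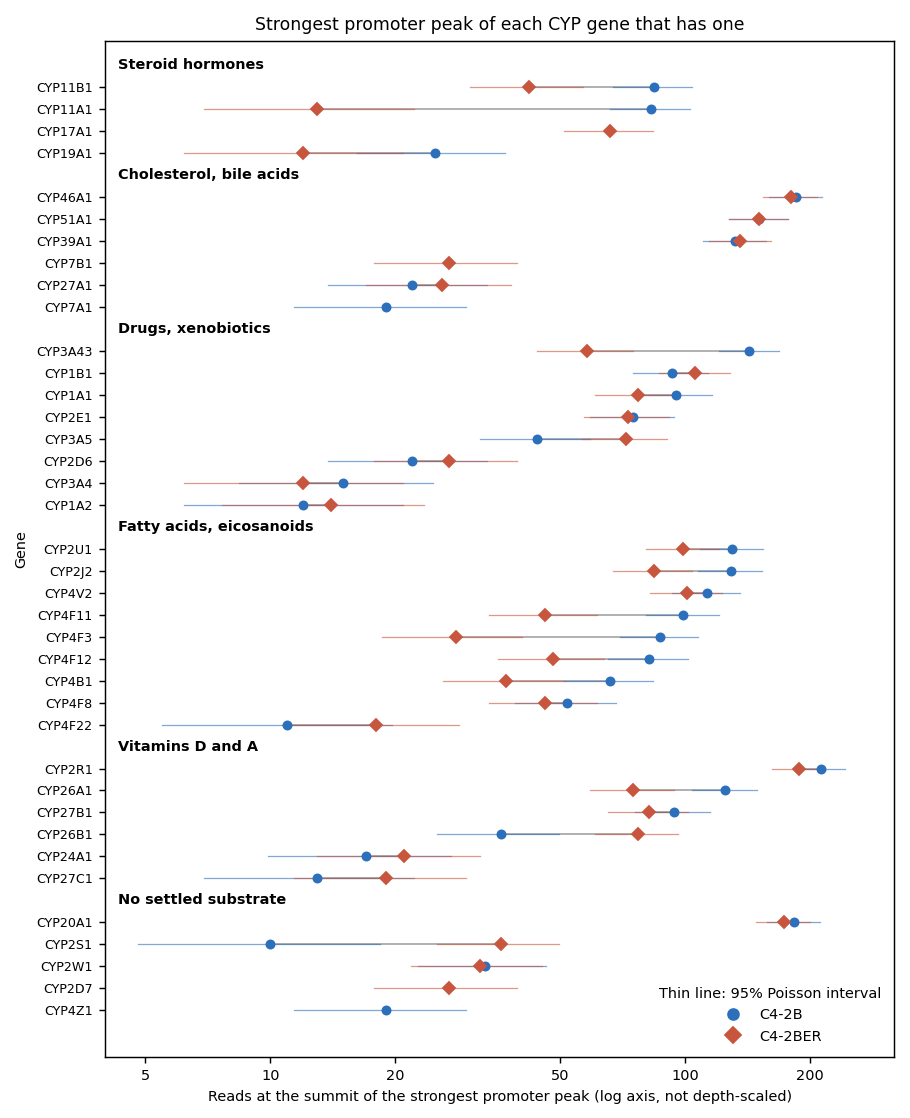
Reads at the summit of the strongest promoter peak (log axis, not scaled for depth) of the 38 CYP genes that have one, in C4-2B (circles) and C4-2BER (diamonds), with 95% Poisson intervals as thin lines. CYP2R1, CYP46A1 and CYP20A1 have the tallest peaks in both lines, and CYP11A1 shows the widest gap, from 83 to 13 reads.

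**Figure D3:**
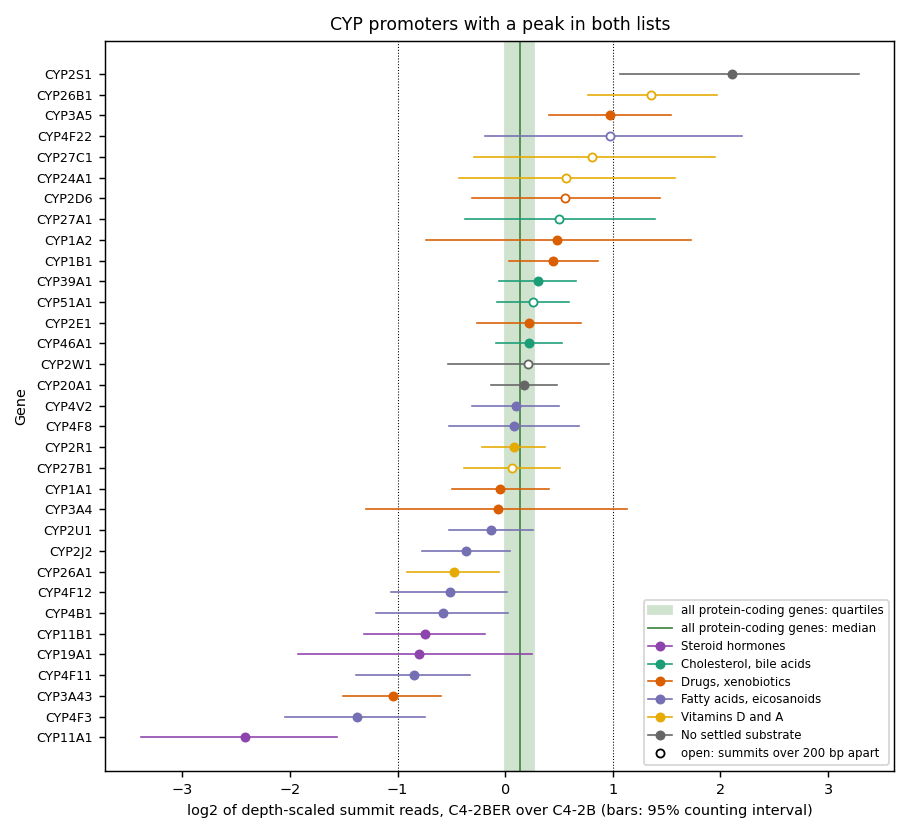
Log2 of the depth-scaled ratio of summit reads, C4-2BER over C4-2B, for the 33 CYP genes open in both lists, with 95% counting intervals as bars; the green band and line are the quartiles and median of all protein-coding genes, and dotted lines mark 2-fold. CYP2S1 lies farthest to the right (2.11) and CYP11A1 farthest to the left (−2.42), and open circles mark genes whose strongest peaks in the lines were over 200 bp apart.

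Among the steroid hormone genes, every promoter open in both lists was weaker in C4-2BER. CYP11A1, the mitochondrial enzyme that cuts the side chain of cholesterol and so starts steroid synthesis, had a peak at chr15:74359443-74360469 in C4-2B and at chr15:74360111-74360320 in C4-2BER (hg38, minus strand). Its summit held 83 reads (−log10 q 65.8) before and 13 reads (−log10 q 5.89) after resistance. The depth-scaled ratio was 0.187 (95% interval 0.0958 to 0.338), the lowest of any member. The C4-2B summit stood at −560 bp from an internal TSS, in an intron of the gene as a whole, and no peak lay within 2000 bp of the canonical TSS. CYP11B1, which makes cortisol in the adrenal cortex, had 84 and 42 reads in the same order, a ratio of 0.598 (0.403 to 0.876). CYP19A1, the aromatase that turns androgens into estrogens, had 25 and 12 reads at an internal TSS, a ratio of 0.574 whose interval (0.263 to 1.19) includes 1. With the canonical TSS alone, none of CYP11A1, CYP11B1 and CYP19A1 had a promoter peak in either list.

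The strongest CYP11A1 summit is shown because it had the lowest ratio of all members. The 201 bp around the C4-2B summit are given on the gene's strand (chr15:74360063-74360263, hg38), with the forkhead consensus TGTTTAC in capitals. This match lies 83 bp from the C4-2B summit. The C4-2BER summit was 54 bp away in the other direction, so the same letters fell outside its window of 100 bp.
CYP11A1: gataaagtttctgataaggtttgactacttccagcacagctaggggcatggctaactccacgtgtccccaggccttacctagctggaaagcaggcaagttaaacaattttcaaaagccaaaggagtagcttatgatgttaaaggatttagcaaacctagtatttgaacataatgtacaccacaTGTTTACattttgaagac

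CYP17A1, the enzyme that opens the route to androgens and the target of abiraterone, was open in C4-2BER only by the window rule, but the site itself was open in both lines. Its C4-2BER peak, chr10:102834789-102835595, held 66 reads at a summit 2272 bp inside the gene (−log10 q 49.2) and reached the promoter window only by its edge. A C4-2B peak at chr10:102834902-102835310 held 59 reads at a summit 5 bp away (−log10 q 35.4), just outside the window. A weaker peak farther inside the gene was also listed in both, with 43 reads (C4-2B) and 21 (C4-2BER). CYP17A1 therefore had no site found in 1 line alone, and the call of C4-2BER only was lost when the summit had to lie in the window. The 201 bp around the C4-2BER summit, chr10:102835041-102835241 on the gene's strand, lie in an intron, and capitals mark the 11 bases centred on the summit.
CYP17A1: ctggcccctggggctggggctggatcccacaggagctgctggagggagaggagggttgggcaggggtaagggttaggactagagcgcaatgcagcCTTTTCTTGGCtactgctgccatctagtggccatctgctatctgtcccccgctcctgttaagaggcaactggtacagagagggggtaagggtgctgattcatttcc

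CYP21A2, a steroid hydroxylase of the adrenal cortex, and CYP11B2, the aldosterone synthase, had no promoter peak. CYP21A2 had none in its body either, but it has a near-identical pseudogene copy, and reads that fit both copies were removed by the mapping quality filter of the authors. CYP11B2 had an intronic peak in both lists, of 47 reads in C4-2B against 25 in C4-2BER. It and CYP11B1 are also near-identical copies.

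Among the cholesterol and bile acid genes, the 3 tallest promoters had similar reads in both lines. CYP51A1, the lanosterol demethylase of cholesterol synthesis, had 151 summit reads in each list, a ratio of 1.20 (0.949 to 1.51). CYP46A1, which makes the form of cholesterol that leaves the brain, had 185 and 180 reads, the tallest peak of this group. CYP39A1, an oxysterol hydroxylase, had 132 and 136 reads, in a window that also holds the start of SLC25A27. The intervals of these 3 ratios all include 1, which does not show that the lines are alike.

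CYP27A1, the mitochondrial sterol hydroxylase, was the weakest gene of this group open in both lists, with 22 reads (C4-2B) and 26 (C4-2BER) at promoters 24.6 kb apart. At the site near its canonical TSS, peaks of both lists overlapped, also with 22 and 26 reads. CYP7A1, the rate-limiting enzyme of bile acid synthesis in liver, had 1 promoter peak, in C4-2B, of 19 reads at 1737 bp inside the gene (−log10 q 10.3), and 2 weaker C4-2BER peaks of 11 and 14 reads farther inside. CYP7B1, the oxysterol hydroxylase of the alternative bile acid route, had 1 promoter peak, in C4-2BER, of 27 reads at 274 bp inside the gene (−log10 q 20.0), at a CpG-rich promoter. CYP8B1, the sterol hydroxylase that sets the share of cholic acid, had no peak in either interval. The pair CYP7A1 and CYP7B1 thus went to different lists, each with few reads.

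Of the 17 drug-metabolism genes, 8 had promoter peaks in both lists and 9 in neither. The CYP1 genes, which the aryl hydrocarbon receptor induces, were open in both lines. CYP1A1 had 95 reads in C4-2B against 77 in C4-2BER close to its TSS, a ratio of 0.970 (0.709 to 1.32). Its overlapping promoter peaks farther inside the gene held 70 reads in C4-2B against 30 in C4-2BER, and 46 against 42. CYP1B1, the tallest of the group in C4-2BER, had 93 and 106 reads, a ratio of 1.36 (1.02 to 1.82). CYP1A2, the liver member, had only 12 and 14 reads. CYP2E1, the ethanol-inducible enzyme, had 75 and 73 reads near an upstream TSS. Its shared promoter peaks downstream of the canonical TSS held 62 reads in C4-2B against 34 in C4-2BER, and 20 against 40.

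The upstream CYP1A1 peak, chr15:74725824-74726065, with 36 reads in C4-2B, is shown because the xenobiotic response element TNGCGTG, the core bound by the aryl hydrocarbon receptor with ARNT, was found within 100 bp of its summit. In the C4-2BER list the same stretch lay inside a wider interval whose summit was elsewhere. The sequence runs on the gene's strand (chr15:74725841-74726041), and the match, in capitals, is on the opposite strand. The element was found in 3 of 55 CYP promoter peaks of C4-2B (CYP1A1, CYP20A1 and CYP27B1) and in 4.41% of all promoter peaks of that list.
CYP1A1: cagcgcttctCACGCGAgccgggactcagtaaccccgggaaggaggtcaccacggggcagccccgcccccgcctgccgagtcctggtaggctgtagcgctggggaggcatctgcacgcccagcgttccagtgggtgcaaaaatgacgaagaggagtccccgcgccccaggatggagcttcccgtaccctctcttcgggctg

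In the CYP3A cluster on chromosome 7, the genes at its ends, CYP3A5 and CYP3A43, had ratios on opposite sides of 1. CYP3A43, a member known for its low activity in liver and its presence in prostate, had summits at the same base in both lists (chr7:99827025-99828342 in C4-2B), at −549 bp from its TSS. They held 143 reads (C4-2B) and 58 (C4-2BER), a ratio of 0.485 (0.351 to 0.663). CYP3A5, an enzyme expressed in liver and many other tissues, had 44 reads in C4-2B against 72 in C4-2BER close to its TSS, a ratio of 1.96 (1.33 to 2.92). CYP3A4, the chief drug-metabolising P450 of adult liver, had 15 and 12 reads, and CYP3A7, the fetal form, had no promoter peak. CYP3A43 thus had the tallest peak of the drug group in C4-2B, and in C4-2BER its reads were fewer than those of CYP3A5.

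These 2 CYP3A promoters are shown on the strand of the gene, 201 bp around the CYP3A43 summit (chr7:99827364-99827564) and the 123 bp of the CYP3A5 peak upstream of its first exon (chr7:99679997-99680119). Capitals mark the androgen receptor hexamer AGAACA, found 2 times in CYP3A43 and 1 time in CYP3A5, and the forkhead consensus TGTTTAC in CYP3A43. The hexamer occurred in 6 of 55 CYP promoter peaks of C4-2B (9.13% of all promoter peaks) and 4 of 57 of C4-2BER (7.06%), so the letters are common.
CYP3A43: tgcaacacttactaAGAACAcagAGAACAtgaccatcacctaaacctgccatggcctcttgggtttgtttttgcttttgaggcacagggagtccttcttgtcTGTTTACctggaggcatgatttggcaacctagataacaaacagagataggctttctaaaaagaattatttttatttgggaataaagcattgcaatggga
CYP3A5: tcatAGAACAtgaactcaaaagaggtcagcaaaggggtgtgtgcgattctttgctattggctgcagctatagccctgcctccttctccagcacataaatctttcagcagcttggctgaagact

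CYP2D6, which clears many antidepressants and opioids, had its strongest promoter peak at different sites in the lines, 3.06 kb apart, with 22 reads (C4-2B) and 27 (C4-2BER). Where peaks of both lists overlapped, it held 15 and 27 reads at summits 238 bp apart, a ratio of 2.15 (1.11 to 4.36). Its neighbour CYP2D7 had 27 reads in C4-2BER at −961 bp from a TSS (chromosome 22, −log10 q 14.8) and no promoter peak in C4-2B. CYP2D6 and CYP2D7 are near-identical, so reads that fit both were lost to the mapping filter and these values are uncertain. None of the CYP2A, CYP2B and CYP2F genes had a promoter peak in either line.

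Most fatty acid genes with an open promoter were weaker in C4-2BER, with 6 of 9 below a log2 ratio of 0. CYP2U1 had 130 reads in C4-2B against 99 in C4-2BER, and CYP2J2, the epoxygenase of arachidonic acid, had 129 and 84. CYP4V2, an omega-hydroxylase of the retina, had 113 and 101, a depth-scaled ratio of 1.07, and was not among the 6. The intervals of these 3 ratios include 1.

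The CYP4F genes on chromosome 19, which inactivate leukotrienes and hydroxylate other fatty acids, were lower in C4-2BER at several promoters. CYP4F3, the leukotriene B4 hydroxylase, had 87 reads (C4-2B) and 28 (C4-2BER) at summits 7 bp apart, a ratio of 0.385 (0.242 to 0.596). CYP4F11 had 99 and 46 reads, a ratio of 0.556 (0.383 to 0.796). CYP4F12 had 82 and 48 reads, with an interval (0.480 to 1.01) that reaches 1. CYP4F8, known from seminal vesicle and prostate, had overlapping peaks of both lists at more than 1 promoter site. Its strongest site by −log10 p held 52 and 46 reads, a ratio of 1.06 (0.696 to 1.60). The site −497 bp from its canonical TSS held 58 and 13 reads, a ratio of 0.268 (0.135 to 0.495). CYP4F22, an enzyme of skin lipids, went the other way with 11 and 18 reads, the weakest values of the group and at sites 713 bp apart that were each listed in 1 line. CYP4F2, the vitamin K and leukotriene hydroxylase, had no peak in its promoter or body.

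The CYP4F3 summit, at −167 bp from its TSS, is shown because it had the lowest ratio of this group among the strongest peaks (chr19:15640630-15640830, plus strand), with 11 bases centred on the C4-2B summit in capitals. CYP4F genes are close copies of one another, so reads may be lost or shared among them.
CYP4F3: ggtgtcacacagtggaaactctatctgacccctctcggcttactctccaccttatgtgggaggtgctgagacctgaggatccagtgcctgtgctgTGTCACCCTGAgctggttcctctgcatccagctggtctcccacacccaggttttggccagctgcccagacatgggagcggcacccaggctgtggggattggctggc

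CYP4B1, a lung enzyme, was also below 0, with 66 reads in C4-2B against 37 in C4-2BER (ratio 0.671, 0.436 to 1.02). CYP4B1 held 2 further promoter peaks in C4-2B only, of 45 reads (−log10 q 30.5) and 24 reads. CYP4A11, the omega-hydroxylase of liver and kidney, had no promoter peak.

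The vitamin genes were open in both lines except CYP26C1. CYP2R1, the liver enzyme that starts vitamin D activation, had the tallest promoter peak of all members, with 213 reads (C4-2B) and 188 (C4-2BER), a ratio of 1.06 (0.863 to 1.29). CYP27B1, which makes the active hormone, had 94 and 82 reads at summits 1.78 kb apart, in a window that also holds the start of METTL1. At the site of its strongest C4-2B peak, the overlapping C4-2BER peaks held 45 and 48 reads. At that of its strongest C4-2BER peak, the lists held 72 (C4-2B) and 82 reads at summits 374 bp apart, a ratio of 1.36 (0.981 to 1.90). CYP24A1, which degrades the hormone, had 17 and 21 reads at summits 1.32 kb apart. CYP27C1, a retinoid desaturase, was the weakest in C4-2B, with 13 and 19 reads.

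The retinoic acid hydroxylases differed in direction. CYP26A1, which clears retinoic acid and is itself induced by it, had 125 reads in C4-2B against 75 in C4-2BER at chr10:93071745-93072715 with a summit at −1484 bp from a TSS, a ratio of 0.718 (0.532 to 0.963). Nearer to its start, a peak shared by both lists, with its summit 31 bp from a TSS, held 33 reads in each. C4-2BER also had 2 peaks there that C4-2B lacked, of 30 and 33 reads. CYP26B1 had 36 reads (C4-2B) and 77 (C4-2BER) at its strongest peaks, which were 5.46 kb apart (ratio 2.56, 1.70 to 3.91). At the farthest upstream site where peaks of both lists overlapped it held 37 and 77 reads at summits 561 bp apart, a ratio of 2.49 (1.66 to 3.79). Its other overlapping promoter peaks differed less, with 36 reads in C4-2B against 54 in C4-2BER, and 39 against 47. CYP26C1, next to CYP26A1, had no promoter peak and 1 body peak of 14 reads, in C4-2BER.

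Both sites are shown because their ratios lie on opposite sides of 1. In CYP26A1 (chr10:93071891-93072091, plus strand) the capitals mark a DR5, a pair of nuclear receptor hexamers in direct repeat with 5 bases between them, the form that retinoic acid receptors bind. CYP26A1 was the only member with a DR5 within 100 bp of a promoter summit, in both lists, whereas 8 of 24426 promoter peaks of C4-2B (0.0328%) and 7 of 23267 of C4-2BER (0.0301%) held one. In CYP26B1 (chr2:72150392-72150592, minus strand) capitals mark the 11 bases centred on the C4-2BER summit.
CYP26A1: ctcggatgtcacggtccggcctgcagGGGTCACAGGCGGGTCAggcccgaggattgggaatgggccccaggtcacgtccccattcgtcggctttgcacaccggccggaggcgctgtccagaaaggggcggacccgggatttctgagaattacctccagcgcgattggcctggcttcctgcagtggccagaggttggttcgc
CYP26B1: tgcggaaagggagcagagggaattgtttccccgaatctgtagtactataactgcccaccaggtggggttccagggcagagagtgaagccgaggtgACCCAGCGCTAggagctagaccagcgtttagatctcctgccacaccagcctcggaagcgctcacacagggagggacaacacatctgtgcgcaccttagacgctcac

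Among the genes with no settled substrate, CYP2S1 had the highest ratio of all members. Its peak at the TSS held 10 reads in C4-2B (−log10 q 2.92) and 36 in C4-2BER (−log10 q 23.3), a ratio of 4.31 (2.09 to 9.73). The C4-2B peak was near the limit of the list, at the 3.17th percentile of peaks by −log10 p, and that of C4-2BER was at the 72.4th. CYP4Z1, known from breast tissue, had a peak of 19 reads 3 bp from its TSS in C4-2B (−log10 q 10.3) and none in C4-2BER. CYP20A1, an orphan enzyme, had 183 and 173 reads, and CYP2W1, a fetal and tumour-associated enzyme, had 33 and 32.

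The 18 members without a promoter peak had, by that choice, no peak within 2000 bp of a TSS. From the canonical TSS, the nearest peak of any kind was at a median of 7.42 kb in C4-2B (4.21 to 25.2 kb) and 6.84 kb in C4-2BER (4.27 to 67.3 kb). In their bodies, 9 had a peak in both lists, CYP2C8 in C4-2B only, CYP2A7 and CYP26C1 in C4-2BER only, and the other 6 in neither.

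Over whole genes, most CYP genes had a peak in both lists. Of the 56 gene bodies 45 (80.4%) held a peak in both lists, against 84.5% of all genes. CYP2C8 and CYP4Z1 held one in C4-2B only (2.26% of all genes) and CYP2A7, CYP2D7 and CYP26C1 in C4-2BER only (1.85% of all genes). The body peaks of CYP4Z1 and CYP2D7 were the promoter peaks given above. The 6 with none were CYP2A6, CYP2B6, CYP2C18, CYP4F2, CYP8B1 and CYP21A2. The median length was 21.9 kb for members and 27.5 kb for all genes. Outside the promoter windows, 23 members (41.1%) had a body peak in both lists, against 56.3% of all genes. There, 8 (14.3%, against 6.94%) had one in C4-2B only, 4 (7.14%, against 2.29%) in C4-2BER only, and 21 (37.5%, against 34.4%) in neither.

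Of the peaks in CYP bodies, 37 of 116 in C4-2B (31.9%) and 19 of 101 in C4-2BER (18.8%) overlapped no peak of the other line, close to the 35.3% and 18.6% over all genes. CYP19A1, the longest of the steroid genes, had the most, with 10 peaks in C4-2B and 7 in C4-2BER. CYP39A1 had 7 and 3, of which 5 were in C4-2B only, among them an intronic peak of 79 reads 3464 bp inside the gene (−log10 q 28.7). CYP7B1 had 6 and 7, CYP4B1 6 and 2, and CYP27C1 6 and 4. The strongest C4-2B-only body peak by −log10 q lay in an intron of CYP46A1 (52 reads, −log10 q 38.6). The strongest C4-2BER-only one lay in an intron of CYP2C19 (35 reads, −log10 q 29.9), a gene whose promoter had no peak.

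In the CYP4 cluster on chromosome 1, 14 of the 26 C4-2B peaks overlapped none of C4-2BER, where 37.7% of all C4-2B peaks and 20.8% of all C4-2BER peaks were in 1 list only. Over its 391.9 kb, from CYP4B1 to CYP4A22, C4-2BER had 14 peaks, 1 of them in C4-2BER only. The CYP4F cluster on chromosome 19 (426 kb) had 29 and 23 peaks, with 12 and 4 in 1 list only, near these shares. The CYP2A, CYP2B, CYP2F and CYP2S1 cluster (364 kb) ran the other way, with 9 peaks in C4-2B, all shared, and 13 in C4-2BER, 4 of them in C4-2BER only. These spans also hold genes that are not members.

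**Figure D4:**
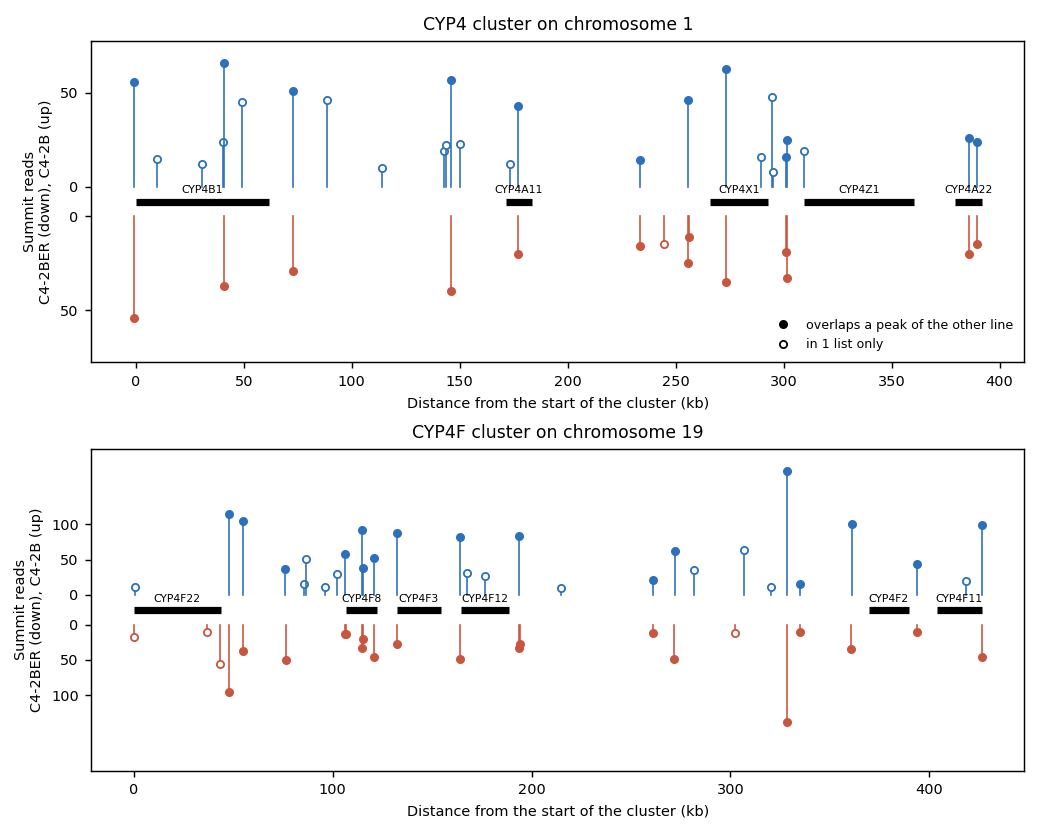
Summit reads of every peak over the CYP4 cluster on chromosome 1 (top) and the CYP4F cluster on chromosome 19 (bottom), by distance in kb from the start of the cluster, with C4-2B upward, C4-2BER downward and CYP genes as black bars. Open circles are peaks that overlap no peak of the other line, 14 in C4-2B and 1 in C4-2BER in the top panel.

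CYP promoters were poor in CpG dinucleotides. With a CpG-rich promoter set at a GC content of at least 50% and a ratio of observed to expected CpG of at least 0.6 within 500 bp of the canonical TSS, 18 of 56 members (32.1%) were CpG-rich, against 64.8% of all genes. Of the CpG-rich members 16 of 18 (88.9%) were open in at least 1 line, against 97.2% of such genes overall. Of the CpG-poor members 22 of 38 (57.9%) were open, against 58.9%. Among CpG-poor promoters the members were thus open about as often as other genes. CYP26C1 and CYP4X1 were the CpG-rich members without a promoter peak.

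**Figure D5:**
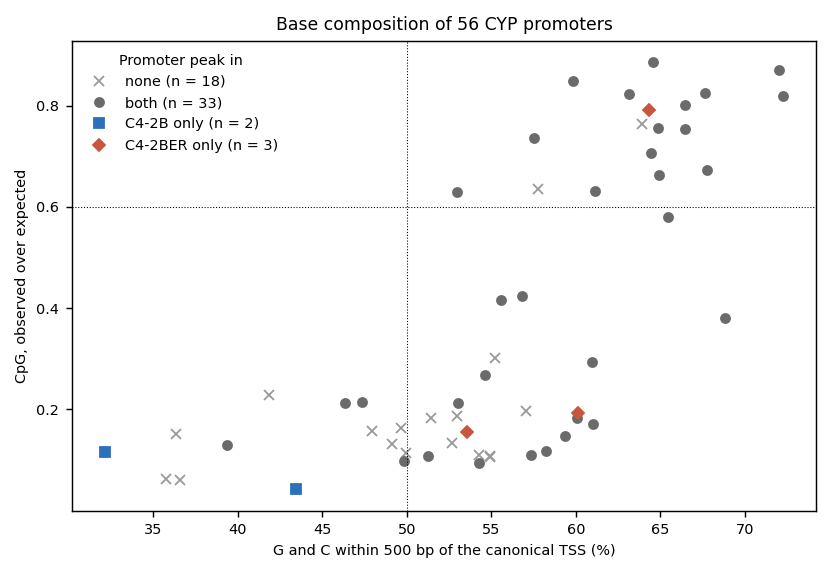
GC content (%) against the ratio of observed to expected CpG within 500 bp of the canonical TSS for the 56 CYP genes, marked by promoter status; dotted lines are the limits of a CpG-rich promoter. Of the 18 genes in the upper right field 16 are open, and 16 of the 18 genes without a promoter peak lie outside it.

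Of the 10 motifs searched within 100 bp of promoter summits on both strands, several were absent from CYP peaks. The full androgen response element (AGAACA, any 3 bases, TGTTCT) was in no CYP promoter peak, and in 0 of 24426 and 0 of 23267 promoter peaks of all genes. The forkhead consensus was in 2 of 55 CYP promoter peaks of C4-2B, at CYP11A1 and CYP3A43 (3.70% of all promoter peaks), and in 2 of 57 of C4-2BER, at CYP26A1 and CYP3A43 (2.79%). The AP-1 site TGANTCA was in 2 of 55 (5.09%) and 4 of 57 (4.44%), the latter at CYP17A1, CYP19A1, CYP1A1 and CYP3A5. The SF-1 site CAAGGTCA was in 0 of 55 (0.757%) and 1 of 57 (0.576%), at CYP26A1. The sterol response element TCACNCCAC (0.782% and 0.735%) and the direct repeats DR2 and DR3 had no match in CYP promoter peaks. A match is a run of letters and not a bound site.

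The genes that serve or regulate P450 enzymes were mostly open in both lines. All 6 electron donors (POR, CYB5A, CYB5R3, FDX1, FDX2 and FDXR) had promoter peaks in both lists, with log2 ratios between −0.09 and 0.23. Of 18 receptors and factors that regulate CYP genes, 14 were open in both lists, among them AHR, ARNT, VDR, RXRA and the retinoic acid receptors. Of all protein-coding genes 77.5% were open in both lists, so such counts do not set these genes apart. NR1H4 (the bile acid receptor FXR), which acts in liver, was open in C4-2BER only, with 18 reads. HNF4A, the chief liver factor, had 9 reads in C4-2B against 25 in C4-2BER. NR1I2 (PXR, the xenobiotic receptor of CYP3A) and NR5A1 (SF-1, the factor of adrenal steroid genes) had no promoter peak in either list. Of the P450 enzymes with other symbols, TBXAS1 had 74 and 77 reads, and PTGIS had 11 in C4-2BER only.

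Markers of tissues where CYP genes are most active were read beside these results. Of 6 hepatocyte markers, ALB and TF had no promoter peak in either list, APOA1 and APOA2 were open in both, TTR had 74 reads (C4-2B) and 25 (C4-2BER), and SERPINA1 was open in C4-2B only. Of 3 adrenal markers, STAR had 15 reads in each list at its promoter, and NR5A1 and MC2R had no promoter peak in either list. The immune markers PTPRC and CD3E had no promoter peak in either list. PECAM1 was open in C4-2BER only, and CDH5, COL1A1 and DCN in both. A promoter peak is not expression, and the part of other cells in any CYP value was not tested.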

How the data were processed

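ATAC-seq was measured in 2 libraries each of C4-2B and C4-2BER. According to the methods of the study, adapters were cut from paired-end reads, which were mapped with Bowtie2 (hg38), kept at a mapping quality of at least 10, stripped of duplicates with Picard and merged by line. Peaks were called with macs2 without a model, with reads extended to 200 bp and a shift printed as 100 with no minus sign. Its sign bears on every summit position, distance to a TSS and motif window, and could not be settled here. The macs2 version is not given in the sources used here. The submitters' processing notes also name FastQC and bedtools 2.17.

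In the deposited lists, the fold column is macs2's ratio of summit pileup to local background, each increased by 1. Each deposited summit also has a −log10 p and a −log10 q, the latter adjusted over its list. The deposited score restates the q-value and was not used. The other deposited column used holds the summit offset in bp. An interval with several summits was counted once, with its summit of highest −log10 p.

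Reads and background at each summit were solved from the fold and −log10 p. Whole numbers were found for 100% of summits, within 0.001 in −log10 p, and the step was tested on simulated data. The most common background, 2.24 (C4-2B) and 1.87 (C4-2BER) reads, gave the depths if macs2 used a genome of 2700000000 bp. The depth ratio is free of this assumption. Summit reads reached at most 395 in either list, above every CYP value.

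Overlap of at least 1 bp defined every call. Ratio intervals are exact 95% binomial (Clopper-Pearson) and read intervals exact Poisson. They cover counting error only. Cluster members lay within 500 kb of a neighbour. Scripts used Python 3.11.15, pandas 2.3.3, SciPy 1.17.1 and pysam 0.24.0, with GENCODE release 44 and hg38 as reference.

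The members, groups, markers and motifs were chosen with earlier results of these data known. Named in full were members open in 1 list, those that differed 2-fold or more, the strongest and weakest shared peak of a group, a set of members listed by role, and the 5 members with most body peaks. CYP2E1, CYP2W1, CYP4F8, CYP4F11, CYP4F12, CYP11B2 and the other members and clusters given outside this rule were chosen after their values were seen. No test was possible on merged lists. Some members and markers are not reported here. Alternatives changed the windows, TSSs, peak thresholds and the rules for overlap.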

Additional observations from a re-analysis of the deposited data

How the results depend on the processing

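No paired analysis was possible because the authors merged the replicates of each line before peak calling, and for the same reason no replicate could be left out. Of 96 alternative values for 14 counts, 64 stayed within 1.5 times the reported count and 32 did not. No alternative was a test, and the cause of these shifts was not tested beyond what each setting changes. Each percentage beside a count of genes here is the share of all protein-coding genes under the same setting. With only the 50000 strongest peaks of each list, promoters open in both lists numbered 21 (66.1%), in C4-2B only 1 (CYP11A1, 1.16%), in C4-2BER only 5 (6.86%) and in neither 29 (25.9%). Bodies numbered 27 in both (74.1%), 6 in C4-2BER only (5.19%) and 20 in neither (18.9%). With a −log10 q of at least 10, promoters in C4-2B only numbered 4 (3.03%) and in C4-2BER only 5 (3.38%). Bodies in C4-2B only numbered 6 (3.24%) and in neither 13 (15.0%). With a −log10 q of at least 5, 6 promoters (3.45%) and 5 bodies (1.83%) were in C4-2BER only. With equal numbers of top peaks these were 7 and 8, where 5.09% of all promoters and 2.84% of all bodies were in C4-2BER only. A window of 1000 bp left 1 promoter in C4-2B only (2.33%), and one of 5000 bp left 1 in C4-2BER only (CYP7B1, 2.50%). With summits inside the interval, bodies in C4-2B only numbered 7 (6.06%) and in C4-2BER only 6 (2.88%). Outside the promoter windows, bodies numbered 23 in both, 8 in C4-2B only and 21 in neither. Peaks in 1 list only depended on the rule for overlap. Under the main rule, 9 of 55 CYP promoter peaks (16.4%) were in C4-2B only and 8 of 57 (14.0%) in C4-2BER only. These shares were close to the 16.2% and 13.6% over the promoter peaks of all genes. Promoter peaks in C4-2B only numbered 18 with summits within 200 bp, 20 with 50% reciprocal overlap and 5 at a −log10 q of at least 10, against 9. The shares over all genes under these other rules were not computed. Those in C4-2BER only numbered 18, 21 and 2 against 8. Body peaks in C4-2BER only numbered 33, 37 and 6 against 19, and those in C4-2B only 18 at a −log10 q of at least 10 against 37. With canonical TSSs, CYP3A43, CYP4F8 and CYP4F3 were 2-fold or more lower in C4-2BER. Ratios at the same site in both lists were chosen after seeing the data. Where several pairs of peaks overlapped, the pair with the tallest depth-scaled summit was used. These ratios gave 3 members 2-fold or more higher (CYP2S1, CYP26B1 and CYP2D6) and 4 lower (CYP11A1, CYP4F3, CYP3A43 and CYP4F8). Also chosen after seeing the data, counting a site shared outside the window left CYP7B1 and CYP2D7 as the 2 promoters in C4-2BER only. Scaling C4-2B to the depth of C4-2BER changed none of the promoter or body counts.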
